A study of Mus musculus with 5 samples.

Results

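The genes examined here were 35 mitochondrial enzymes, carriers and enzyme regulators that bring pyruvate, branched chain amino acids and ketone bodies into the citrate cycle, together with the cycle itself. They were listed by gene name and role, by a rule that uses no measured value, though the list was made with earlier results of these data known. All 35 were found among 19061 gene rows. They fell into 4 steps: pyruvate entry (5 genes), the citrate cycle (13), branched chain amino acid breakdown (14) and ketone body use (3). All 35 also passed the filter on low read numbers that left 14414 genes for testing, with 943 to 120817 reads per member and library.

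In the working heart, most ATP comes from mitochondria. Pyruvate is carried into the mitochondrion and turned into acetyl-CoA, which citrate synthase feeds into the citrate cycle. The cycle passes electrons to the respiratory chain and also receives carbon from ketone bodies and from leucine, isoleucine and valine. Breakdown of those branched chain amino acids is controlled mainly at the branched chain keto acid dehydrogenase, which a kinase (Bckdk) turns off and a phosphatase (Ppm1k) turns on, and expression of this pathway is known to be low in failing hearts.

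RNA had been sequenced from hearts of C57BL/6 mice with a calcineurin transgene (MHC-CnATg), in which a cardiomyocyte promoter, that of the alpha myosin heavy chain gene, drives an active calcineurin and causes cardiac hypertrophy. The JIB-04 group had 3 libraries and the vehicle group had 2, all transgenic and all collected at postnatal day 158. JIB-04, an inhibitor of Jumonji histone demethylases, was dosed at 50 mg/kg, 3 times each week, from an age of 4 weeks, and vehicle was given on that schedule. No heart without the transgene was analysed here, so the values describe JIB-04 against vehicle within the hypertrophic heart. The labels do not state in words that each library is a separate animal, and p-values then measure only the spread between these libraries. In the title of JIB-04 replicate 3 the transgene is spelled unlike in the other titles, but its genotype label is that of the others.

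Depth was 32152168 to 37002846 recovered reads per library. Ppp3ca, the calcineurin gene that the transgene carries, had 7275, 4341 and 5421 CPM in the JIB-04 libraries, against 6082 and 8022 CPM in the vehicle libraries, so the groups overlapped. Its log2 fold change was -0.33, or -0.53 without JIB-04 replicate 1 (limma adjusted p = 0.862 and 0.323). All values are deposited CPM, a read count scaled to library size by the authors. Fold changes compare JIB-04 with vehicle on the log2(CPM + 1) scale, which slightly understates changes of low genes, and were tested with limma and Benjamini-Hochberg adjustment over all 14414 genes. The design has 3 libraries against 2, with 3 residual degrees of freedom.

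Every one of the 35 enzymes had a lower mean in the JIB-04 hearts than in the vehicle hearts, but each difference was small and none passed the test. The log2 fold changes ran from -0.28 for Ppm1k to -0.03 for Bdh1, with a median of -0.14. Over all genes tested the median was -0.01, and 53.1% of genes had a negative value. Members called by limma at an adjusted p under 0.05 numbered 0 of 35, where 0% of all genes were called (0 of 14414), and the smallest adjusted p of a member was 0.797 (Pccb). At an unadjusted p under 0.05, 0 members were lower and 0 higher, where 2.51% of all genes were lower and 3.93% were higher. edgeR and DESeq2 on the recovered reads also called 0 members, where DESeq2 called 85 genes among all genes. The genes were read from the same 5 libraries, so their common direction is not 35 separate observations.

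Summed over the 35 genes, expression was 18371, 15541 and 16566 CPM in the JIB-04 libraries, against 17432 and 19106 CPM in the vehicle libraries. The JIB-04 mean was 16826 ± 1433 CPM (SD, n = 3) and the vehicle mean was 18269 ± 1184 CPM (SD, n = 2). JIB-04 replicate 1 lay between the vehicle libraries, and JIB-04 replicates 2 and 3 lay below both. Ppp3ca put the 5 libraries in the same order as this sum, with vehicle replicate 2 highest and JIB-04 replicate 2 lowest, and its part in the members' values was not tested. In such bulk tissue, fewer cells of a type and less RNA per cell cannot be told apart.

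**Figure D1:**
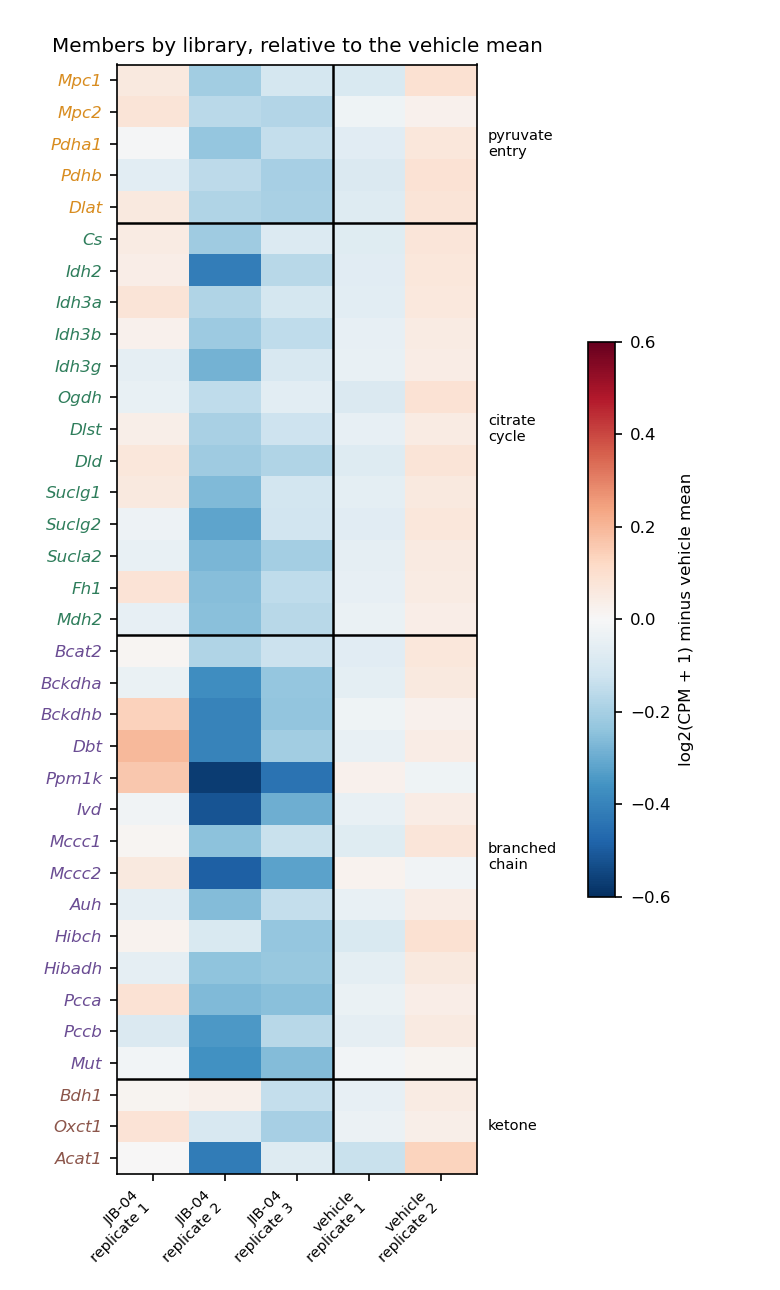
Colour shows log2(CPM + 1) of each of the 35 genes in each library minus the mean of the 2 vehicle libraries, from blue (lower) to red (higher), with the genes grouped by step. JIB-04 replicates 2 and 3 are blue in nearly every row, with the lowest value for Ppm1k at -0.57 in JIB-04 replicate 2, while JIB-04 replicate 1 stays close to the vehicle libraries.

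The JIB-04 libraries differed among themselves more than the groups did. Relative to the vehicle mean, the median member stood at 0.02 (log2) in JIB-04 replicate 1, at -0.25 in JIB-04 replicate 2 and at -0.17 in JIB-04 replicate 3. The vehicle libraries also differed, with vehicle replicate 2 above vehicle replicate 1 in 33 of 35 members, by a median of 0.11 (log2). JIB-04 replicate 2 held the lowest value of 29 members and JIB-04 replicate 3 that of the other 6. The highest value was in vehicle replicate 2 for 26 members and in JIB-04 replicate 1 for 9. Those 9 were Mpc2, Idh3a, Fh1, Bckdhb, Dbt, Ppm1k, Mccc2, Pcca and Oxct1.

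Complete separation, with all 3 JIB-04 values under the lower vehicle value, was seen for 4 of 35 members (11.4%), where 12.0% of all genes had it. In the other direction, 0 members were separated, where 10.7% of all genes were. The 4 were Idh3g, Mdh2, Auh and Pccb, which are named because of this separation. A share near that of all genes is not a result about these enzymes.

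Pccb is the beta subunit of propionyl-CoA carboxylase, which takes up the propionyl-CoA formed from isoleucine and valine (chromosome 9, 100982038 to 101034875, mm10). It had 93.9, 78.6 and 89.0 CPM in JIB-04 hearts, against 96.3 and 104 CPM in vehicle hearts. The log2 fold change was -0.20 (SE 0.09, limma adjusted p = 0.797). The gap between the groups was narrow, since the highest JIB-04 library lay just under the lower vehicle library.

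Idh3g encodes the gamma subunit of the NAD-dependent isocitrate dehydrogenase, a regulatory subunit of a pace-setting enzyme of the cycle (chromosome X, 73778963 to 73786897). It had 476, 405 and 461 CPM in JIB-04 hearts, against 478 and 508 CPM in vehicle hearts. Auh hydrates methylglutaconyl-CoA in leucine breakdown and also binds AU-rich RNA (chromosome 13, 52835110 to 52929677). It had 53.3, 46.1 and 50.2 CPM in JIB-04 hearts, against 53.7 and 57.2 CPM in vehicle hearts. For both genes JIB-04 replicate 1 came within a few CPM of vehicle replicate 1, and the log2 fold changes were -0.14 (Idh3g) and -0.15 (Auh).

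Promoter sequences were searched because most members were high or low in the same libraries. RefSeq windows on GRCm38.p6, running from 250 bases before to 50 bases after a transcription start, were matched for 31 of the 35 genes (41 windows, out of 32851 windows of all genes). Windows were searched on both strands for motifs of factors known to act on mitochondrial genes. The windows of Pccb and Idh3g are printed because these are separated members whose windows hold a searched motif, which is given in capitals. Pccb, chr9:101034835-101035134 on the minus strand, holds the NRF1 motif GCGCATGCG at position -35 relative to the start, and Idh3g, chrX:73786848-73787147 on the minus strand, holds the YY1 motif AAGATGGCG at position -130.
Pccb: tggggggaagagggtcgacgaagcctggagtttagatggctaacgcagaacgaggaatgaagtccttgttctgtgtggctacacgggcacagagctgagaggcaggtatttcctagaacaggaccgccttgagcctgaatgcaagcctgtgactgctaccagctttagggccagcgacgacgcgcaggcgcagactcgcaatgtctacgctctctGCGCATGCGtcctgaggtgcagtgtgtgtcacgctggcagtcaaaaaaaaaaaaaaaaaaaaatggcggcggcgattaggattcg
Idh3g: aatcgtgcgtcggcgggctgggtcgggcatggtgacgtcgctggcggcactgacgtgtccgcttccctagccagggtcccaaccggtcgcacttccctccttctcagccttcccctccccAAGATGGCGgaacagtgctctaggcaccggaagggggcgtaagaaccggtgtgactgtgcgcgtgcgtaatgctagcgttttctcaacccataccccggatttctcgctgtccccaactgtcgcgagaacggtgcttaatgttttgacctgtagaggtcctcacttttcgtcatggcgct

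NRF1 is a transcription factor of nuclear genes for mitochondrial proteins, and YY1 is a zinc finger factor with the same kind of targets in muscle. Ogdh alone has 6 of the 41 member windows. The NRF1 letters were found in 3 of the 41 windows (those of Ogdh and Pccb) and in 1.75% of all windows. The Ogdh windows with these letters overlap and hold the same genomic site, so the letters lie in 2 of 31 genes. The YY1 letters were found in 2 of 41 windows (Bckdha and Idh3g) and in 1.40% of all windows. The letters AAGGTCA, read by estrogen-related receptors, were found in 1 of 41 windows (Ogdh), against 4.72% of all windows, and the longer TCAAGGTCA, which contains them, in 0 of 41, against 0.423%. The GABP letters CCGGAAGT were found in 1 of 41 (Dlst), against 3.89%. These matches describe letters in the windows and are not shown to be binding sites. The windows of the other members held none of the letters searched.

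The first step, pyruvate entry, showed small differences that were within the spread of the libraries. The median log2 fold change of its 5 genes was -0.11, from -0.14 to -0.08, and 0 of 5 were fully separated. Pdha1 is the catalytic alpha subunit of pyruvate dehydrogenase, which makes acetyl-CoA from pyruvate, and it had the highest CPM of this step. It had 1539, 1314 and 1401 CPM in JIB-04 hearts, against 1473 and 1620.4 CPM in vehicle hearts, a log2 fold change of -0.13 (SE 0.12, limma adjusted p = 0.869). Its beta subunit Pdhb had 433, 405 and 394 CPM in JIB-04 hearts, against 426 and 480.0 CPM in vehicle hearts, a log2 fold change of -0.14 (SE 0.09, limma adjusted p = 0.821). Dlat, the acetyltransferase core of that complex, had 379.9, 322 and 318 CPM in JIB-04 hearts, against 346 and 385 CPM in vehicle hearts. In each of these 3 genes JIB-04 replicate 1 lay within the vehicle range and the other JIB-04 libraries lay below it.

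Mpc1 and Mpc2 form the carrier that brings pyruvate through the inner membrane. Mpc1 averaged 317 ± 29.9 CPM in JIB-04 hearts and 336 ± 29.7 CPM in vehicle hearts, and Mpc2 averaged 95.4 ± 9.80 CPM in JIB-04 hearts and 101 ± 2.58 CPM in vehicle hearts (SD, n = 3 and 2). Their log2 fold changes were -0.08 and -0.09. Of 11 further genes of this step, such as pyruvate dehydrogenase kinases and phosphatases, 10 had negative values and 0 passed the test. Full separation below vehicle was seen for 3 of the 11, where 12.0% of all genes had it. Pdk4, a kinase that turns pyruvate dehydrogenase off, had 818, 390.2 and 483 CPM in JIB-04 hearts, against 735 and 869.7 CPM in vehicle hearts (log2 fold change -0.58, limma adjusted p = 0.816). Pdk2, a kinase of the same enzyme, had 342, 293 and 331 CPM in JIB-04 hearts, against 359.9 and 383 CPM in vehicle hearts, so it was separated (limma adjusted p = 0.782). In Pdk4 the low values were those of JIB-04 replicates 2 and 3, and JIB-04 replicate 1 lay between the vehicle libraries.

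The 13 citrate cycle genes also had negative values throughout, with a median log2 fold change of -0.11 and a range of -0.18 to -0.07. Idh2, the NADP-dependent mitochondrial isocitrate dehydrogenase (chromosome 7, 80094847 to 80115350), had the most negative value. It had 2239.7, 1636 and 1943 CPM in JIB-04 hearts, against 2076 and 2286 CPM in vehicle hearts, a log2 fold change of -0.18 (SE 0.16, limma adjusted p = 0.866). JIB-04 replicate 1 lay near the top of the vehicle range and JIB-04 replicate 2 far below it. The alpha, beta and gamma subunits of the NAD-dependent enzyme, Idh3a, Idh3b and Idh3g, had log2 fold changes of -0.07, -0.11 and -0.14.

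Sucla2 is the ATP-forming beta subunit of succinyl-CoA ligase. It had 438, 374 and 392 CPM in JIB-04 hearts, against 435 and 469.9 CPM in vehicle hearts, a log2 fold change of -0.17 (SE 0.09, limma adjusted p = 0.821). The GTP-forming beta subunit Suclg2 and the shared alpha subunit Suclg1 had log2 fold changes of -0.16 and -0.11. Mdh2, the malate dehydrogenase that closes the cycle (chromosome 5, 135778649 to 135790386), was one of the separated genes. It had 994, 864 and 916 CPM in JIB-04 hearts, against 1001 and 1058 CPM in vehicle hearts, a log2 fold change of -0.16 (SE 0.10, limma adjusted p = 0.830). JIB-04 replicate 1 lay just under the lower vehicle library.

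Ogdh, the decarboxylating subunit of the oxoglutarate dehydrogenase complex, had the highest CPM of all members. It had 3345, 3106 and 3302 CPM in JIB-04 hearts, against 3247 and 3665 CPM in vehicle hearts, a log2 fold change of -0.09 (SE 0.15, limma adjusted p = 0.921). Here JIB-04 replicates 1 and 3 both lay between the vehicle libraries. Its partner Dlst, the succinyltransferase core, and Dld, the dehydrogenase subunit that this complex shares with pyruvate dehydrogenase and the branched chain complex, had log2 fold changes of -0.09 and -0.11. Cs, citrate synthase, averaged 1000.2 ± 92.0 CPM in JIB-04 hearts and 1057 ± 77.6 CPM in vehicle hearts, and Fh1, fumarase, averaged 282 ± 34.5 CPM in JIB-04 hearts and 303 ± 15.4 CPM in vehicle hearts (SD, n = 3 and 2).

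Of 15 other genes around the cycle, 12 had negative values and 0 passed the test. Full separation below vehicle was seen for 3 of the 15, where 12.0% of all genes had it. Ogdhl, a relative of Ogdh, had 140.0, 86.3 and 102 CPM in JIB-04 hearts, against 135 and 155 CPM in vehicle hearts (log2 fold change -0.43, limma adjusted p = 0.795). Idh1, the cytosolic isocitrate dehydrogenase, had 32.7, 29.2 and 32.1 CPM in JIB-04 hearts, against 34.9 and 34.6 CPM in vehicle hearts (log2 fold change -0.15, limma adjusted p = 0.821). Ogdhl overlapped between the groups through JIB-04 replicate 1, and Idh1 did not overlap.

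**Figure D2:**
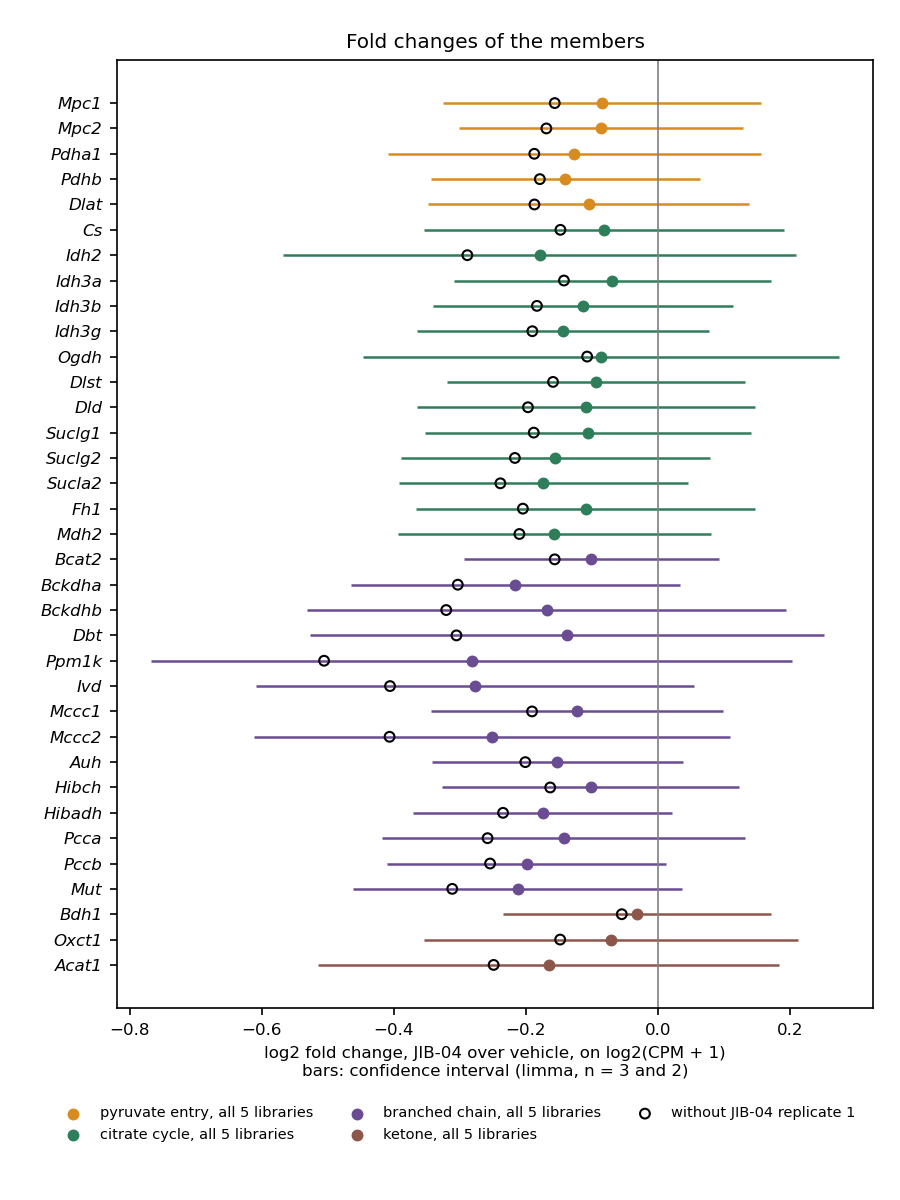
Points show the log2 fold change, JIB-04 over vehicle, of each gene on the log2(CPM + 1) scale, coloured by step, with bars for limma's 95% confidence interval (3 and 2 libraries); open circles show the value without JIB-04 replicate 1. All 35 points lie left of 0 and all 35 intervals cross 0, and each open circle lies further left than its point.

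The 14 branched chain genes had the most negative median of the 4 steps, -0.17, with a range of -0.28 to -0.10, and 0 of 14 passed the test. Ppm1k, the phosphatase that turns the branched chain keto acid dehydrogenase on (chromosome 6, 57506502 to 57535426), had the most negative log2 fold change of all 35 members. It had 95.0, 56.7 and 62.1 CPM in JIB-04 hearts, against 86.3 and 83.1 CPM in vehicle hearts. The log2 fold change was -0.28 (SE 0.20, 95% confidence interval -0.77 to 0.20, limma adjusted p = 0.836). JIB-04 replicate 1 was the highest of all 5 libraries, and JIB-04 replicates 2 and 3 were the lowest.

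Ivd, isovaleryl-CoA dehydrogenase of the leucine branch (chromosome 2, 118862000 to 118881357), had the highest CPM of this step. It had 308, 218 and 255 CPM in JIB-04 hearts, against 303 and 322 CPM in vehicle hearts, a log2 fold change of -0.28 (SE 0.14, limma adjusted p = 0.816). Mccc2, the beta subunit of methylcrotonoyl-CoA carboxylase, the next enzyme of that branch, had 77.5, 52.7 and 59.2 CPM in JIB-04 hearts, against 75.4 and 73.4 CPM in vehicle hearts. Its log2 fold change was -0.25 (SE 0.15, limma adjusted p = 0.821). Both genes showed the order seen for Ppm1k, with JIB-04 replicate 2 lowest, JIB-04 replicate 3 next and JIB-04 replicate 1 inside or above the vehicle range. The alpha subunit Mccc1 had a log2 fold change of -0.12.

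The branched chain keto acid dehydrogenase itself is built from Bckdha, Bckdhb and the transacylase core Dbt. Bckdha averaged 181 ± 21.2 CPM in JIB-04 hearts and 209.9 ± 12.4 CPM in vehicle hearts (SD, n = 3 and 2), a log2 fold change of -0.22 (SE 0.10, limma adjusted p = 0.816). Bckdhb and Dbt had log2 fold changes of -0.17 and -0.14. Bcat2, the mitochondrial aminotransferase that starts the pathway, had -0.10. Mut, methylmalonyl-CoA mutase, which makes succinyl-CoA for the cycle, averaged 98.0 ± 12.5 CPM in JIB-04 hearts and 113 ± 2.05 CPM in vehicle hearts, a log2 fold change of -0.21. In the valine branch, Hibch (a hydrolase) and Hibadh (a dehydrogenase) had log2 fold changes of -0.10 and -0.17, and Pcca, the alpha subunit that pairs with Pccb, had -0.14.

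**Figure D3:**
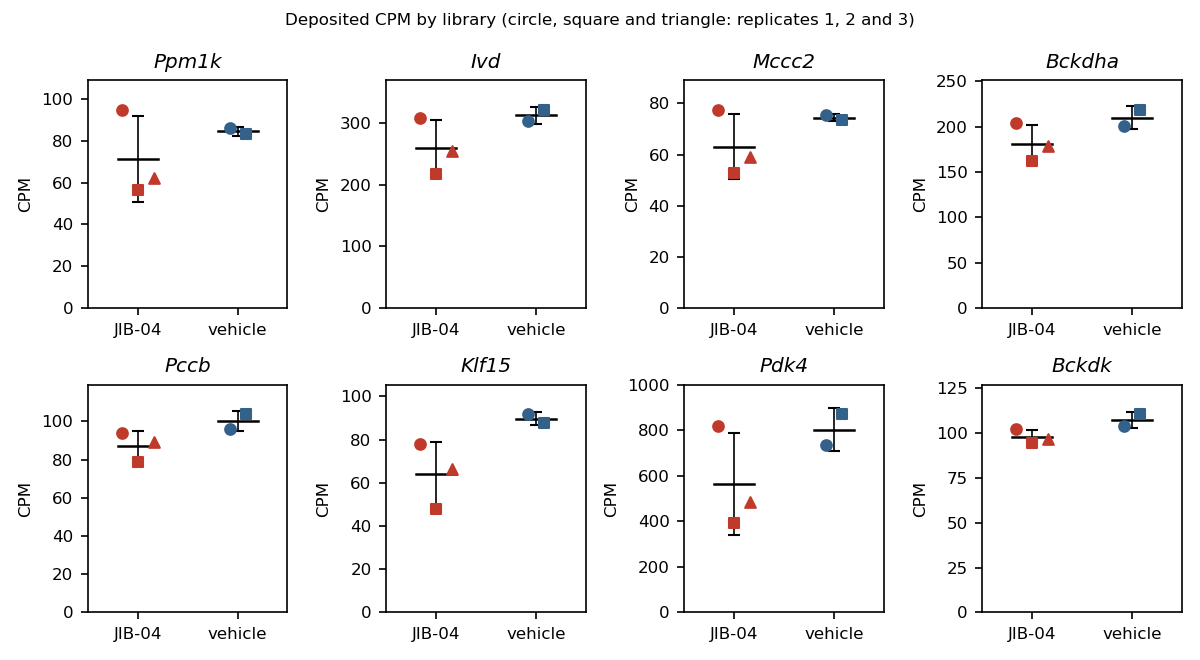
Points show deposited CPM of 5 branched chain genes and 3 regulators (Klf15, Pdk4 and Bckdk) in each library, JIB-04 left and vehicle right, with the group mean as a line and the SD as bars (n = 3 and 2). In Ppm1k, Ivd, Mccc2, Bckdha and Pdk4 the circle of JIB-04 replicate 1 lies within or above the vehicle points while the square and triangle of JIB-04 replicates 2 and 3 lie below; in Pccb, Klf15 and Bckdk all 3 JIB-04 points lie below both vehicle points.

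Of 17 other genes of branched chain breakdown, 13 had negative values and 0 passed the test. Full separation below vehicle was seen for 3 of the 17, where 12.0% of all genes had it. These 3 were Bckdk, Abat and Mcee. Abat, an aminotransferase that also handles a product of valine, had 109.7, 102 and 94.4 CPM in JIB-04 hearts, against 115 and 134 CPM in vehicle hearts (log2 fold change -0.28, limma adjusted p = 0.744). Mcee, the epimerase just before Mut, had a log2 fold change of -0.18 (limma adjusted p = 0.815). Bckdk, the kinase that opposes Ppm1k, had 102, 94.6 and 96.9 CPM in JIB-04 hearts, against 104 and 110.5 CPM in vehicle hearts (log2 fold change -0.13, limma adjusted p = 0.816). The kinase and the phosphatase therefore both had negative values, with the phosphatase more variable among the JIB-04 libraries.

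The 3 ketone genes had the median nearest to 0 of the steps, -0.07, and 0 of 3 passed the test or were separated. Bdh1, which oxidises beta-hydroxybutyrate to acetoacetate, had 458, 464 and 411 CPM in JIB-04 hearts, against 438 and 470.0 CPM in vehicle hearts. Its log2 fold change was -0.03 (SE 0.09, limma adjusted p = 0.947), and its value was slightly positive, 0.02, with plain CPM scaling. Oxct1, the transferase that activates acetoacetate and sets ketone use in heart, had 1418, 1253 and 1165 CPM in JIB-04 hearts, against 1306 and 1372 CPM in vehicle hearts, a log2 fold change of -0.07 (SE 0.12, limma adjusted p = 0.918). Acat1, the mitochondrial thiolase that yields acetyl-CoA and also acts in isoleucine breakdown, had 532, 397 and 505 CPM in JIB-04 hearts, against 486 and 583 CPM in vehicle hearts, a log2 fold change of -0.17 (SE 0.15, limma adjusted p = 0.864). Bdh1 was the only member for which JIB-04 replicate 2 was not below both vehicle libraries, and Ogdh and Acat1 were the only ones for which JIB-04 replicate 3 was not.

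Of 8 other ketone and monocarboxylate genes that could be tested, 5 had negative values and 0 passed the test. Separation with the JIB-04 values above was seen for 2 of the 8, where 10.7% of all genes had it. Slc16a3, a lactate exporter that glycolytic cells and leukocytes use, had 5.34, 11.5 and 8.24 CPM in JIB-04 hearts, against 4.92 and 4.27 CPM in vehicle hearts (log2 fold change 0.69, limma adjusted p = 0.750). Acat2, the cytosolic thiolase, had 3.66, 2.46 and 2.87 CPM in JIB-04 hearts, against 4.19 and 3.45 CPM in vehicle hearts (limma adjusted p = 0.821). The direction of Slc16a3 was opposite to that of every member.

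Pyruvate, oxoglutarate and branched chain dehydrogenases all need lipoic acid on their core subunits. Of 6 genes of lipoate synthesis and attachment, 5 had negative values and 0 passed the test, with log2 fold changes of -0.15 for Lias (lipoate synthase) and -0.14 for Mecr, of mitochondrial fatty acid synthesis. Among 11 regulators of these pathways, 10 had negative values and 0 passed the test. Full separation below vehicle was seen for 3 of the 11, where 12.0% of all genes had it. At an unadjusted p under 0.05, Abat and Klf15 were lower and Slc16a3 higher among the genes of these further lists. Klf15, a factor that promotes branched chain breakdown in heart, had 77.8, 48.1 and 66.2 CPM in JIB-04 hearts, against 91.7 and 87.6 CPM in vehicle hearts (log2 fold change -0.51, limma adjusted p = 0.748). Ppara, a receptor that drives fatty acid use, had 146, 95.3 and 145 CPM in JIB-04 hearts, against 163 and 166 CPM in vehicle hearts (log2 fold change -0.37, limma adjusted p = 0.816). Esrra and Ppargc1a, a receptor and a coactivator of mitochondrial genes, had log2 fold changes of -0.05 and -0.13, and their groups overlapped.

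The distance of the members from vehicle depended on single libraries, in both directions. Without JIB-04 replicate 2, the members' median log2 fold change was -0.06 and that of Ppm1k was -0.14. Without vehicle replicate 2, the median was also -0.06, with 32 of 35 members negative. Without vehicle replicate 1, it was -0.19, and 26 of 35 members lay under the lone vehicle library in all JIB-04 libraries, where 27.2% of all genes did.

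Without JIB-04 replicate 1, the median log2 fold change of the members was -0.20, and it was -0.18, -0.19, -0.28 and -0.15 for pyruvate entry, citrate cycle, branched chain and ketone genes. Then 32 of 35 members had both remaining JIB-04 libraries below both vehicle libraries, where 28.9% of all genes did. By step, these were 5 of 5, 12 of 13, 14 of 14 and 1 of 3 genes. At an unadjusted p under 0.05, 19 of 35 members were lower, where 9.00% of all genes were, and 12 of the 19 were branched chain genes. Called at an adjusted p under 0.05 were 0 members, where 0.201% of all genes were (29 genes). The smallest adjusted p of a member was 0.0547, for Ppm1k, at a log2 fold change of -0.51 (SE 0.07). The labels give JIB-04 replicate 1 the same genotype, dose and age as the others, and the values with all 5 libraries are the ones reported first.

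**Figure D4:**
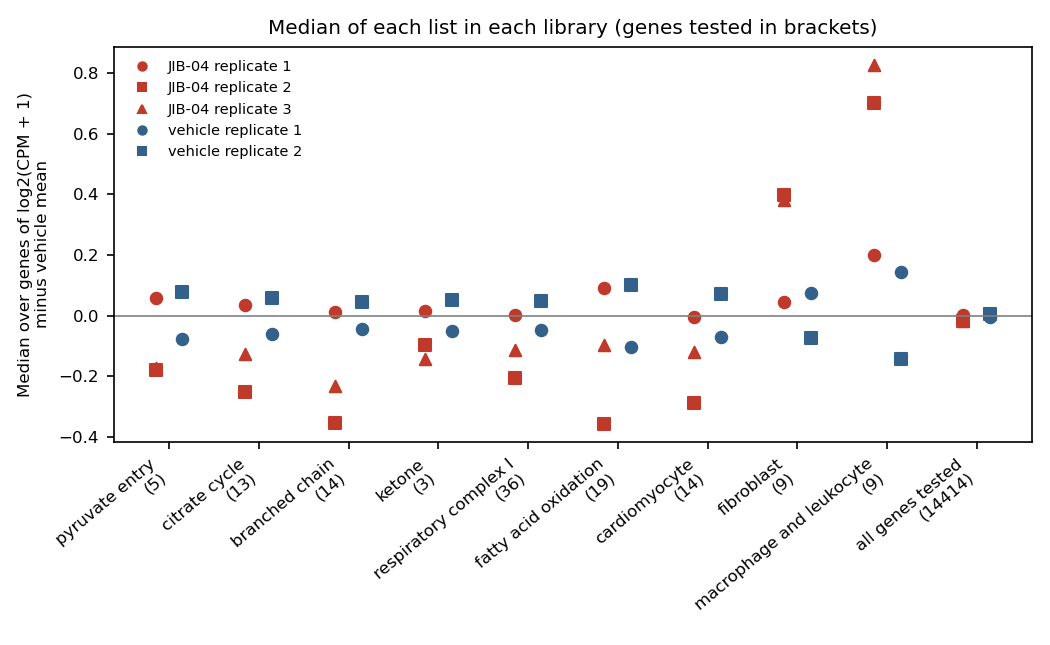
Each point is the median, over the genes of a list, of log2(CPM + 1) in a library minus the vehicle mean, with JIB-04 libraries left and vehicle libraries right within each list. The 4 enzyme steps, complex I and cardiomyocyte genes show JIB-04 replicates 2 and 3 low, at -0.25 and -0.13 for the citrate cycle. In fatty acid oxidation genes only JIB-04 replicate 2 is low, at -0.36, since JIB-04 replicate 3 (-0.095) lies near vehicle replicate 1 (-0.10). Fibroblast and macrophage genes show JIB-04 replicates 2 and 3 high, at 0.70 and 0.83 for macrophage and leukocyte genes.

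Summed cardiomyocyte markers moved with the members from library to library, while summed fibroblast and macrophage markers mostly moved the other way. The 14 cardiomyocyte markers summed to 95364, 79107 and 85612 CPM in the JIB-04 hearts, against 90313 and 102430 CPM in the vehicle hearts, and 14 of 14 had negative log2 fold changes (median -0.17). The 9 fibroblast markers summed to 2603, 3708 and 3373 CPM in the JIB-04 hearts, against 2685 and 2374 CPM in the vehicle hearts, and 8 of 9 had positive values (median 0.20). The 9 macrophage and leukocyte markers summed to 243, 322 and 361 CPM in the JIB-04 hearts, against 244 and 178 CPM in the vehicle hearts, and 8 of 9 had positive values (median 0.54). The order of the JIB-04 libraries was thus the same for the members and the cardiomyocyte markers, and the libraries low in both were the ones high in fibroblast and macrophage markers. The part of these markers in the members' values was not tested. The centring given next cannot test it, since the members and the cardiomyocyte markers put the 5 libraries in the same order.

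Endothelial markers had a median log2 fold change of -0.01, but stood at -0.17 in JIB-04 replicate 1 and at 0.18 in JIB-04 replicate 2, the library in which most members were lowest. Without JIB-04 replicate 1 their median was 0.11. Smooth muscle markers had a median of 0.00. The 7 red blood cell rows hold only 4 distinct sets of values, since globin gene copies share theirs. These 4 summed to 897, 1790.0 and 1310.0 CPM in the JIB-04 hearts, against 3746 and 2449 CPM in the vehicle hearts. All 4 were separated below vehicle, where 12.0% of all genes were. Of the adipocyte genes, Adipoq, Plin1 and Cidec were at 0 to 0.13 CPM in every library, and Cidea was at 26.7 to 36.6 CPM. Of the skeletal muscle genes, Myh1 and Myh2 were at 0 to 0.11 CPM, while Acta1 had 2296, 2244 and 2294 CPM in the JIB-04 hearts, against 1578 and 2583 CPM in the vehicle hearts. When each library was instead centred on its 14 cardiomyocyte markers, the median of all genes moved to 0.15. On that scale the members' median was 0.02, with 22 of 35 positive, and the branched chain genes had -0.02. The members' differences from vehicle were therefore about as large as those of cardiomyocyte genes, and their negative direction holds relative to all genes but not relative to these markers.

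Other mitochondrial genes had similar medians. Full separation below vehicle was seen for 12.0% of all genes, and the shares given here are not read as results about these groups. Of 36 nuclear genes of respiratory complex I, 36 had negative values, with a median log2 fold change of -0.12, and 5 were fully separated (13.9%). Of 19 fatty acid oxidation genes, 18 had negative values, with a median of -0.13, and 1 was separated (5.26%). The members' own figures were -0.14 and 11.4%. JIB-04 replicates 2 and 3 both lay below both vehicle libraries for 32 of 35 members (91.4%), where 28.9% of all genes had this. The counts were 26 of 36 complex I genes (72.2%) and 8 of 19 fatty acid oxidation genes (42.1%). JIB-04 replicate 1 lay above both vehicle libraries for 9 of 35 members, where 5305 of all 14414 genes tested did. The counts were 8 of 36 complex I genes and 11 of 19 fatty acid oxidation genes. These differences between gene groups were not tested.

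Per kilobase of annotated exon, the 35 genes spanned a wide range of levels and kept nearly the same order in both groups. Idh2 was the highest, at 1112 CPM per kb in JIB-04 hearts and 1250 CPM per kb in vehicle hearts, followed by Ogdh, at 731 CPM per kb in JIB-04 hearts and 777 CPM per kb in vehicle hearts. Mdh2, Pdha1 and Oxct1 came next in both groups. In JIB-04 hearts they were at 635, 498 and 362 CPM per kb, and the vehicle values were 707, 543 and 379.7 CPM per kb. The lowest were Auh, at 6.50 CPM per kb in JIB-04 hearts and 7.23 CPM per kb in vehicle hearts, and Ppm1k, at 12.8 CPM per kb in JIB-04 hearts and 15.2 CPM per kb in vehicle hearts. The ketone gene Oxct1 thus ranked above all branched chain genes, the highest of which was Hibadh, at 116 CPM per kb in JIB-04 hearts and 131 CPM per kb in vehicle hearts. Exon length was taken over all isoforms in the basic annotation set, so these levels depend on which isoforms are used.

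**Figure D5:**
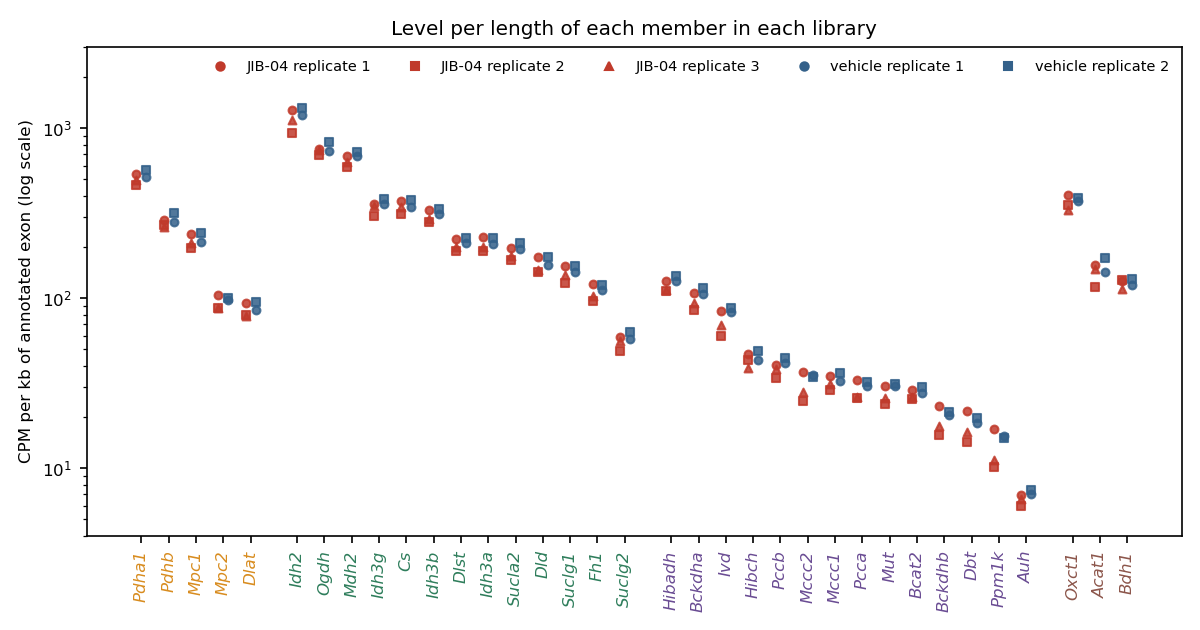
Points show CPM per kb of annotated exon, on a log axis, of each gene in each JIB-04 library (red) and vehicle library (blue), sorted by level within each step. Citrate cycle genes reach 1250 CPM per kb (Idh2, vehicle mean), branched chain genes lie lower, and the libraries of a gene sit close together compared with the distance between genes.

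Ratios between enzymes that act together were compared within each library, since a shift common to all members cancels there. For each of 10 ratios an exact two-sided permutation test of the group labels was run, whose smallest possible p is 0.1, so that none could reach 0.05. The groups overlapped for 9 of the 10, with adjusted p from 0.875 to 1. Ppm1k over Bckdk had log2 ratios of -0.10, -0.74 and -0.64 in JIB-04 hearts, against -0.27 and -0.41 in vehicle hearts, a difference of -0.15 (exact p = 0.6). Pdk4 over Pdha1 had -0.91, -1.75 and -1.54 in JIB-04 hearts, against -1.003 and -0.898 in vehicle hearts, a difference of -0.45 (exact p = 0.3). In both ratios the low values were again those of JIB-04 replicates 2 and 3.

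Ratios between subunits of an enzyme overlapped between the groups. Pdha1 over Pdhb differed by 0.01 (log2, exact p = 1), Sucla2 over Suclg2 by -0.02 (exact p = 0.7), Suclg1 over Suclg2 by 0.05 (exact p = 0.3), Bckdha over Bckdhb by -0.04 (exact p = 0.9), Pcca over Pccb by 0.06 (exact p = 0.7) and Mccc1 over Mccc2 by 0.13 (exact p = 0.4). Bdh1 over Oxct1 differed by 0.04 (exact p = 0.7). Idh3a over Idh2, the NAD-dependent against the NADP-dependent isocitrate dehydrogenase, did not overlap. Its log2 ratios were -1.93, -1.74 and -1.91 in JIB-04 hearts, against -1.96 and -1.97 in vehicle hearts, a difference of 0.11 (exact p = 0.3). A p above the threshold in so small a design does not show that a ratio was the same in both groups.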

How the data were processed

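The comparison was of 3 JIB-04 against 2 vehicle heart libraries. RNA was extracted with Trizol and stranded mRNA libraries were made, per the labels' protocols. The submitters' processing notes name edgeR, featureCounts, Subread, Picard 1.127, TopHat2 2.0.12, FastQC 0.11.2 and build mm10 without a role, and whether strand was used in counting is not given in the sources used here. The deposited values, headed CPM, are a signal that the authors scaled by library size and a factor, since column sums ran from 954981 to 1046902. All values (100%) were within 0.01 of a whole multiple of 1 read, and whole reads were recovered, 32152168 to 37002846 per library.

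Here, log2(CPM + 1) was fitted with limma 3.58.1 (R 4.3.3, mean-variance trend) for 14414 genes kept by filterByExpr (minimum count 10, total 15), with Benjamini-Hochberg adjustment at 0.05. The fit was run on simulated data with genes drawn independently and planted changes larger than those of the members. That run does not test how the fit handles small shifts shared by many genes. edgeR 4.0.16 and DESeq2 1.42.0 on recovered reads, other scalings and filters, and leaving out each library were alternatives. One blank row was left out. The members and gene lists were chosen with earlier results of these data known. Values in every library are given for the 3 members of each step with the largest fold change, the highest of each step and separated members; other pathway genes are those with the smallest p in each list and fixed regulators. Exon lengths come from the basic annotation set of GENCODE M21. Exons of 8 members (Mpc1, Pdha1, Idh3b, Bcat2, Mccc1, Mut, Bdh1 and Oxct1) overlap a gene on the other strand, so their counts may include its reads.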

Additional observations from a re-analysis of the deposited data

How the results depend on the processing

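All 35 members had negative log2 fold changes with edgeR, DESeq2, a pseudocount of 0.1, no filter, a mean CPM filter and DESeq2 size factors, and 0 members were called under any alternative. DESeq2 called 85 genes (69 higher, 16 lower) where limma called 0, and leaving out each library gave 0 to 29 genes. Members separated below both vehicle libraries numbered 7 with plain CPM (6.74% of all genes) and 1 with centring on cardiomyocyte markers (1.28%). Leaving out JIB-04 replicate 1 gave 32 such members, where 28.9% of all genes were separated. Leaving out JIB-04 replicate 2 or 3 gave 4, against 17.2% of all genes in each case. With vehicle replicate 1 dropped, 26 members lay below the lone vehicle library, where 27.2% of all genes did. With vehicle replicate 2 dropped, 4 did, against 20.1%. The share of all genes thus moved with the setting too. Centring moved the median of all genes to 0.15 and reversed the medians of all members (0.017), pyruvate entry (0.050), citrate cycle (0.046) and ketone genes (0.084). It also reversed Mpc1 (0.070), Mpc2 (0.069), Pdha1 (0.029), Pdhb (0.015), Dlat (0.050), Cs (0.073), Idh3a (0.086), Idh3b (0.042), Idh3g (0.011), Ogdh (0.069), Dlst (0.061), Dld (0.047), Suclg1 (0.049), Fh1 (0.046), Bcat2 (0.054), Dbt (0.017), Mccc1 (0.033), Auh (0.0026), Hibch (0.053), Pcca (0.012), Bdh1 (0.12), Oxct1 (0.084), Idh1 (0.0098), Lias (0.0076), Mecr (0.014), Bckdk (0.024), Esrra (0.10) and Ppargc1a (0.025). By construction, this scale sets the cardiomyocyte markers to 0.

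Where a vehicle library was left out, the lone one was assumed to vary like the JIB-04 libraries. Over the left-out libraries, log2 fold changes ran from -0.17 to 0.0053 for Mpc1, from -0.17 to 0.0011 for Ogdh, from -0.083 to 0.023 for Bdh1 and from -0.31 to 0.11 for Ppargc1a. Differences of log2 ratios ran from -0.085 to 0.027 for Bckdha over Bckdhb, from -0.0086 to 0.058 for Pdha1 over Pdhb, from -0.0045 to 0.13 for Pcca over Pccb, from -0.049 to 0.017 for Sucla2 over Suclg2 and from -0.0055 to 0.093 for Bdh1 over Oxct1. Bdh1 was also positive with plain CPM (0.021). Each member had at least 943 reads in every library. What limits the calls was not tested.

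Replicates 1 and 2 of the groups share only a number in their titles, and deviations of same-numbered libraries correlated at -0.13 in both pairs. The deviations of the vehicle libraries from their mean are mirror images of each other, so these pairs are not separate checks. With the replicate block, 0 genes were called (532 at an unadjusted p under 0.05), the members' median was -0.11 and Bdh1 was at 0.023. JIB-04 replicate 3 has no partner and drops out of that fit.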
